A study of Mus musculus with 16 samples.

Results

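The effect of a diet low in isoleucine on the mouse liver was measured across 2 feeding states together, so that genes shifted by the diet whether the animals were fasted or refed could be listed. All 16 deposited liver libraries entered the comparison: 8 from mice on the low isoleucine diet and 8 from mice on the control amino acid diet, out of 16 in the series. All mice were male, began their diet at 10 weeks of age, ate it for 3 weeks and were 13 weeks old at harvest, housed at about 22 °C. Their strain is not stated in the labels. The 4 groups of 4 libraries were control fasted, low isoleucine fasted, control refed and low isoleucine refed. A fast of 16 h is recorded for all 16 libraries, the refed ones included, and the fasted animals were killed at its end. The labels do not say how long the refed animals had eaten. The numbers 1 to 4 within a group are names in accession order, and the labels do not state that each library is a separate animal, so p-values measure the spread between these libraries.

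Isoleucine is one of the 3 branched-chain amino acids and cannot be made by mammals, so it must be eaten. When an amino acid runs short, uncharged tRNA activates the kinase GCN2, and the transcription factor ATF4 then raises genes of amino acid synthesis and transport and the hormone gene Fgf21. The liver also holds gene programmes that differ between the sexes, which are set in large part by the pattern of pituitary growth hormone and the factor STAT5B, and it responds to interferons by raising a shared set of antiviral genes.

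Libraries held 24368656 to 34002955 expected counts, and 14920 of 51912 genes had enough counts to be tested. Levels are given as TMM-normalised CPM, a scale that puts libraries of unequal depth side by side, and differences as log2 fold changes, low isoleucine minus control, with feeding state as an added term. A gene is said to have risen or fallen only if its Benjamini-Hochberg adjusted p was under 0.05 in the edgeR quasi-likelihood test over all 14920 genes. The liver identity of the libraries was plain: the pan-hepatocyte marker genes summed to between 79778 and 136026 CPM in every library. Control refed library 4 stood apart, with a share of major urinary protein (Mup) transcripts of 2.81% against 7.67 to 13.8% in the other control refed libraries, and results that turn on it are given without it. Each group carries 1 number of its own in its labels (1, 2, 7 or 9), so whatever these numbers stand for cannot be told apart from diet. In whole tissue, fewer cells of a type and less RNA per cell cannot be told apart either.

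The diet changed 211 genes, or 1.41% of those tested. Of these 85 rose (0.570% of tested genes) and 126 fell (0.845%). These shares are the background for the counts of list members below. The fold change was at least 2 for 28 of the genes that rose and 53 of those that fell, and 190 of the 211 had a mean of at least 1 CPM. Among the genes that fell were male-biased liver genes, interferon-stimulated genes and complement components, while female-biased liver genes, the lipoprotein receptor gene Vldlr and the vasopressin receptor gene Avpr1a were among those that rose. The count depended on single libraries: leaving out control refed library 4 gave 448 genes and leaving out low isoleucine fasted library 1 gave 320. Leaving out low isoleucine fasted library 4, 2 or 3 gave 104, 114 and 140 genes, control fasted library 4 or 3 gave 120 and 125, and low isoleucine refed library 1 or 2 gave 138 and 129. In each of these fits all 211 genes kept the sign of their difference. This was favoured in advance, because each fit reused all but 1 of the libraries by which the genes were chosen. Calls that passed in few of the 16 fits with 1 library left out included Acox3, Ifit1, Nt5c2 and Zbp1 (3 fits each), Acnat2, Ifih1 and Rsad2 (4 each) and Cyp2c37, Folr2 and Mx1 (5 each). Cyp17a1, Slc16a7 and Slc7a5 passed in 6 of these fits, C8b, Clec4f and Oas1g in 7, and Cdk1 in 8.

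Avpr1a (ENSMUSG00000020123), which encodes the V1a vasopressin receptor, had the smallest p of all genes. It was at 7.96, 10.1, 9.19 and 9.46 CPM in control fasted libraries 1 to 4 and at 21.2, 20.7, 19.1 and 20.7 in low isoleucine fasted libraries. In refed mice it was at 11.7, 9.37, 10.9 and 13.6 on the control diet and at 19.0, 24.98, 22.0 and 18.02 on the low isoleucine diet. The highest control value of either state lay below the lowest low isoleucine value. The log2 fold change was 1.02 (SE 0.0949, 95% interval 0.82 to 1.22, adjusted p = 4.7e-05), a 2.02-fold difference.

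Vldlr (ENSMUSG00000024924) encodes the very low density lipoprotein receptor, a cell-surface receptor for triglyceride-rich particles, and is a known ATF4 target. Its promoter is shown because it carries the ATF4 element discussed below. Of the 2 Vldlr start sites listed by RefSeq (GRCm38.p6), the second has one match to the composite ATF4 element TGATGCAA, read on the other strand, and the first has none in its window. The Fgf21 promoter, also shown, has one match of the same letters. Each run is the 250 bases before the start site, 5′ to 3′ on the gene's strand, with the match in capitals; the Vldlr run lies at chr19:27216770-27217019 on the plus strand and the Fgf21 run at chr7:45615491-45615740 on the minus strand.
Vldlr: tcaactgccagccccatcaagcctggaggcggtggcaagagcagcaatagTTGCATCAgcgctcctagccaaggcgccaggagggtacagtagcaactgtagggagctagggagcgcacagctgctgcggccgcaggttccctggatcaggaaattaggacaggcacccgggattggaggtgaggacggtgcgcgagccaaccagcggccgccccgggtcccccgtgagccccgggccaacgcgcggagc
Fgf21: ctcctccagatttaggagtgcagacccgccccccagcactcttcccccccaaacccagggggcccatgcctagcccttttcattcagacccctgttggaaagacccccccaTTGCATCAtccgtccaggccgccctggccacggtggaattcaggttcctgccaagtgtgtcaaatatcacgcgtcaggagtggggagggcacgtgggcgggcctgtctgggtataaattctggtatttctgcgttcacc

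In the fasted livers Vldlr was at 3.41, 1.40, 1.73 and 0.738 CPM on the control diet and at 8.37, 9.15, 7.41 and 7.24 on the low isoleucine diet. In the refed livers it was at 3.06, 2.89, 1.16 and 3.18 against 16.7, 17.4, 14.3 and 15.4. All 8 low isoleucine libraries lay above all 8 control libraries, and the refed ones were the highest. The log2 fold change was 2.40 (SE 0.240, adjusted p = 0.000101), and the difference between the states' diet effects had a 95% interval of -0.51 to 1.46 log2 units.

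Of the 30 members tested of the ATF4 amino acid response, 2 rose (Vldlr and Atf5), none fell and 28 did not pass, where the background is 1.41% of all genes in either direction. Over both states the log2 fold change was positive for 28 of the 30 and its median was 0.52, against -0.00 over all genes tested. Read within each state, the sign was the same in fasted and refed mice for 21 of the 30, against 58.4% of all genes. The median was 0.11 in fasted and 0.56 in refed mice, and it ran from 0.35 to 0.59 as single libraries were left out. The number that passed was 4 without low isoleucine refed library 3 and 1 without low isoleucine fasted library 3 or 4, control refed library 2 or low isoleucine refed library 2. Atf5, an ATF4-related transcription factor gene, ran from 160.2 to 219 CPM (median 197) in control libraries and from 201 to 466 (median 311) in low isoleucine libraries, with a log2 fold change of 0.67 (SE 0.142, adjusted p = 0.0231). The element TGATGCAA was found on either strand in 6 of 33 promoter windows of the list (18.2%; 300 bases from 250 before to 50 after the start) and in 0.895% of all 32851 windows (0.662% of those of tested genes). It was present in 2 of 91 windows of genes that rose (2.2%) and 2 of 95 windows of genes that fell (2.11%), too few to compare with these shares. A match is a description of letters only.

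Fgf21 (adjusted p = 0.0993) and Asns, asparagine synthetase (adjusted p = 0.418), did not pass. Fgf21 was at 5.08, 3.86, 7.87 and 4.87 CPM in control fasted livers, at 6.54, 13.7, 22.5 and 11.7 in low isoleucine fasted livers, at 13.996, 2.52, 2.24 and 5.73 on the control diet with refeeding and at 13.2, 97.4, 5.03 and 56.4 on the low isoleucine diet with refeeding. Low isoleucine refed libraries 2 and 4 were far above the rest, and libraries 1 and 3 overlapped the controls. Its log2 fold change was 2.09 with a 95% interval of 0.83 to 3.34. Asns was at 1.25 to 23.1 CPM in control and 5.62 to 24.5 CPM in low isoleucine libraries, with an interval of -0.09 to 1.82. Cytosolic aminoacyl-tRNA synthetases, which charge tRNA with amino acids, counted 0 passing members of 20 by edgeR, 3 at an unadjusted p under 0.05, and their median was 0.13. Slc7a5, the light chain of the LAT1 transporter that carries isoleucine and other large neutral amino acids, was on no list and was picked out after its value was seen. It rose, with a log2 fold change of 0.95 (SE 0.218, adjusted p = 0.0370), and was highest in low isoleucine refed library 4 at 10.5 CPM.

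**Figure D1:**
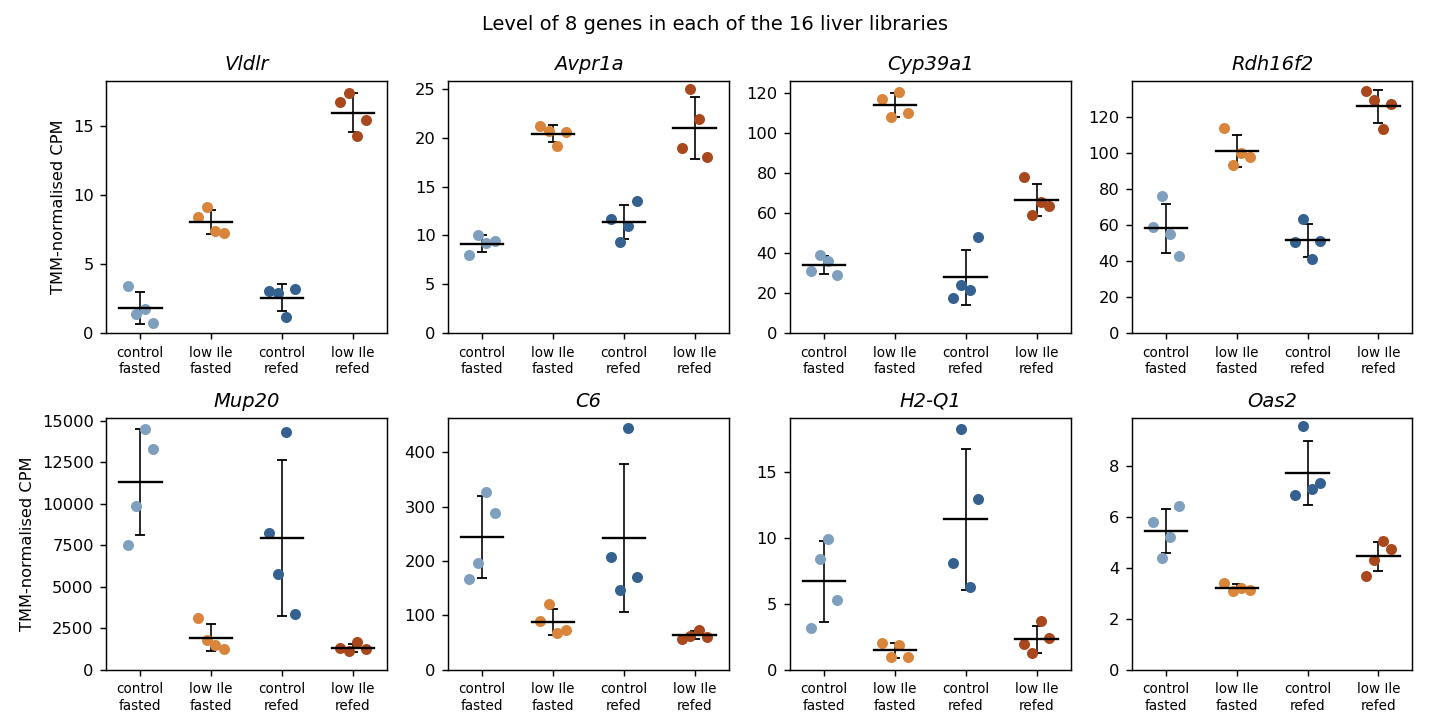
TMM-normalised CPM (vertical axis, linear from 0) of 8 genes in each library. Points are libraries 1 to 4 of each diet and feeding group from left to right, the long bar is the group mean and the error bar 1 SD (n = 4). Within each feeding state all 4 low isoleucine libraries lie above (Vldlr, Avpr1a, Cyp39a1, Rdh16f2) or below (Mup20, C6, H2-Q1, Oas2) all 4 control libraries. All but Oas2 met the part of the naming rule that asks for no overlap, so for them this separation was fixed by the choice.

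Male-biased liver genes held 8 of the genes that fell. All 22 tested members had log2 fold changes below 0, and their median was -1.05 (-1.14 in fasted and -0.89 in refed mice). Of these 8 fell (Mup20, Mup21, Cyp4a12a, Cyp4a12b, Serpina1e, Selenbp2, C6 and C8b), none rose and 14 did not pass, where 0.845% of all genes fell. Without control refed library 4 the number that fell was 16. With any other single library left out it stayed within 1.5 times of 8, and the median stayed between -1.22 and -0.83. Many of these genes belong to families of near-identical copies (Mup, Cyp4a12, Serpina1, Selenbp), so the division of reads among copies is uncertain.

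Mup20, which encodes the male urinary pheromone darcin, was at 7534, 9888, 14513 and 13302 CPM in control fasted livers and at 3108, 1812, 1515 and 1255 in low isoleucine fasted livers. In refed livers it was at 8222, 5774, 14304 and 3368 on the control diet and at 1280.4, 1099, 1641 and 1278 on the low isoleucine diet. The lowest control library, control refed 4, was still above the highest low isoleucine library. This was a log2 fold change of -2.57 (SE 0.265, adjusted p = 0.00014), and the difference between states was -0.02 with an interval of -1.12 to 1.07. All Mup transcripts together took 7.74 to 11.9% of the counts in fasted controls, 3.41 to 7.08% in low isoleucine fasted, 2.81 to 13.8% in control refed and 3.54 to 7.00% in low isoleucine refed libraries. The ranges overlapped in refed but not in fasted mice. When mitochondrial, Mup and Alb transcripts were left out of the table, 209 genes were called.

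Serpina1e, an alpha-1-antitrypsin gene, was at 1955 to 9766 CPM (median 5116) in control libraries and at 311 to 1567 CPM (median 959) in low isoleucine libraries, without overlap. Its log2 fold change was -2.61 (SE 0.369, adjusted p = 0.00227). Selenbp2, a selenium-binding protein gene, fell by 3.22 on the log2 scale (adjusted p = 0.00615). Cyp4a12a, an androgen-dependent arachidonic acid hydroxylase, was at 124 to 619.5 CPM in control libraries and at 69.2 to 147 CPM in low isoleucine ones, so that control refed library 4 (124) fell within the range of the other diet. Its log2 fold change was -1.88 (SE 0.277, adjusted p = 0.00274). Srd5a1, a steroid 5-alpha-reductase, and Gstp1, a glutathione S-transferase, were outside the list and picked out after their values were seen; they fell by 1.06 (adjusted p = 0.00626) and 1.41 (adjusted p = 0.00517) on the log2 scale.

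Female-biased liver genes held 5 of the genes that rose. Of 16 tested members 5 rose (among them Cyp2b9, Sult3a1, Cyp17a1 and Rdh16f2), none fell and 11 did not pass, where 0.570% of all genes rose. Over both states the log2 fold change was positive for 15 of the 16 and its median was 1.02 (1.84 in fasted and 0.60 in refed mice). Read within each state, the sign was the same in fasted and refed mice for 10 of the 16, against 58.4% of all genes. Without control refed library 2, which was the highest control refed library for Cyp2b9 and Cyp17a1, the number that rose was 8. A further 6 genes of the list had too few counts to be tested.

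Cyp2b9, a female-specific cytochrome P450 of a cluster of similar genes, was at 3.70, 0.512, 0.0691 and 0.0321 CPM in control fasted and at 25.007, 37.7, 35.6 and 46.5 in low isoleucine fasted livers. It was at 0.804, 28.3, 0.399 and 2.46 in control refed and at 133, 165, 193 and 115 in low isoleucine refed livers. The second control refed library, at 28.3, exceeded low isoleucine fasted library 1 but no low isoleucine refed library. Over both states the log2 fold change was 4.59 (SE 0.789, adjusted p = 0.00935). Sult3a1, a sulfotransferase, was scarce: it was at 0 to 0.235 CPM in control and 0.482 to 1.13 CPM in low isoleucine libraries (adjusted p = 0.00121).

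Rdh16f2, a retinol dehydrogenase family member, was at 59.0, 75.9, 54.9 and 42.6 CPM in fasted controls, 114, 93.2, 100.007 and 97.4 in low isoleucine fasted, 50.8, 63.3, 40.9 and 51.0 in control refed and 135, 129, 113 and 127 in low isoleucine refed livers. All 8 low isoleucine libraries were above all 8 controls. On the log2 scale the difference was 1.05 (SE 0.122, adjusted p = 0.000269). Cyp17a1, a steroid 17-alpha-hydroxylase, was at 20.5 to 148 CPM in control and 164 to 428 CPM in low isoleucine libraries (log2 fold change 1.66, SE 0.358, adjusted p = 0.0329). Genes of growth hormone signalling and the IGF axis had a median of -0.02 over 18 members, of which Prlr, the prolactin receptor, rose (log2 fold change 0.70, adjusted p = 0.0210) and 17 did not pass. The number of this list that passed was 0 without control fasted library 3, 2 without control refed library 4 and 3 without low isoleucine fasted library 1. The STAT5 letters TTCNNNGAA were found in 8.3% of all promoter windows, in 7.11% of those of tested genes, in 6.59% of those of genes that rose and in 8.42% of those of genes that fell.

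**Figure D2:**
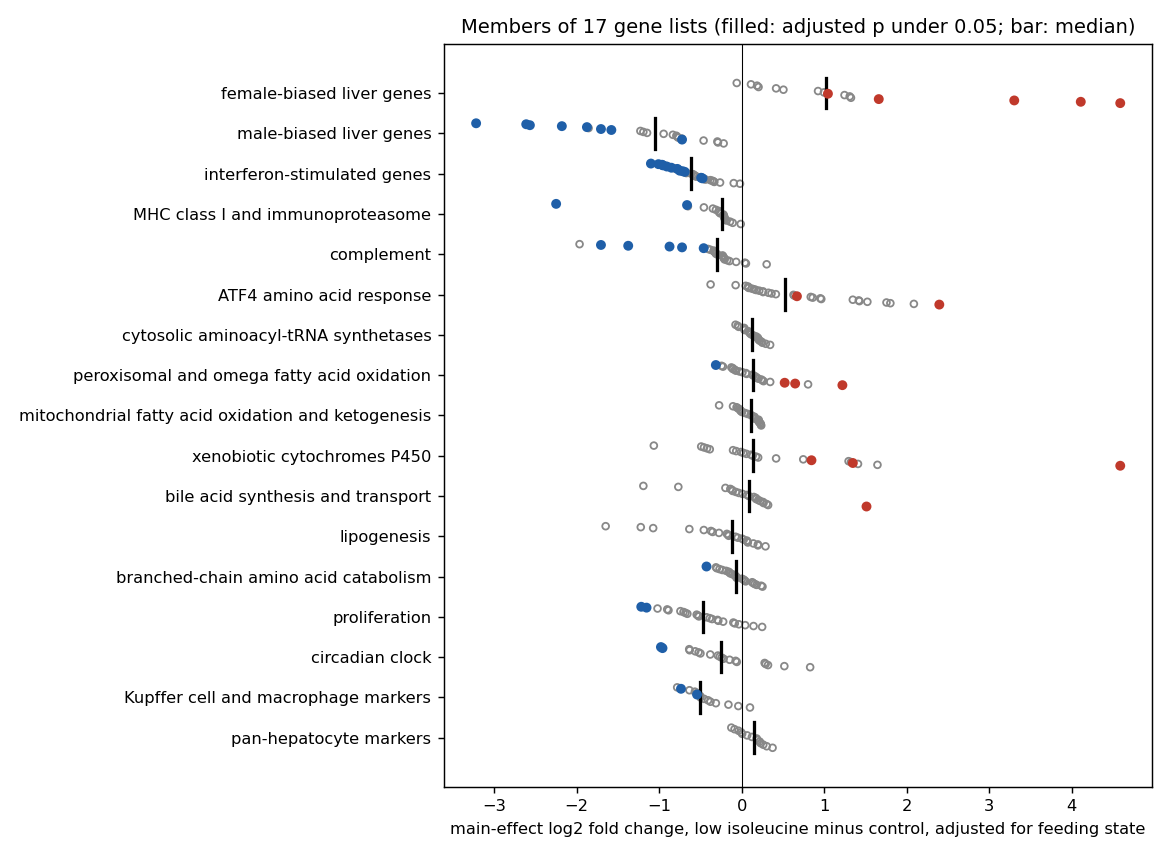
Main-effect log2 fold change (horizontal axis) of every tested member of 17 gene lists; filled points had an adjusted p under 0.05, open points did not, and the vertical bar is the list median. All members of the male-biased (median -1.05), interferon-stimulated (-0.61) and MHC class I lists (-0.24) lie below 0, and 15 of 16 female-biased genes lie above it.

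Interferon-stimulated genes, which limit virus growth, held 12 of the genes that fell. All 35 tested members lay below 0 on the log2 scale, and their median was -0.61. Of these 12 fell (Ifit1, Mx1, Oas1a, Oas1g, Oas2, Rsad2, Irf7, Ifi44, Ifi27, Ifih1, Parp14 and Zbp1), none rose and 23 did not pass, where 0.845% of all genes fell. The median was -0.88 in fasted and -0.38 in refed mice, and the sign was the same in both for 30 of the 35. The number that fell ranged from 5, without low isoleucine fasted library 2, 3 or 4 or control refed library 2, to 20 without control refed library 4, and the median from -0.71 to -0.57. It was also beyond 1.5 times of 12 without control fasted library 1, 2, 3 or 4 (7, 6, 6 and 6) or low isoleucine refed library 1, 2 or 4 (6, 7 and 7). Without a term for feeding state 3 members fell, and when the difference had to exceed 1.2-fold 2 did.

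Oas2, a sensor of double-stranded RNA that makes oligoadenylates, was at 5.79, 4.40, 5.21 and 6.45 CPM in control fasted and at 3.42, 3.07, 3.22 and 3.15 in low isoleucine fasted livers. In refed livers it was at 6.88, 9.57, 7.11 and 7.32 against 3.70, 4.31, 5.06 and 4.73. The diets did not overlap within either state, although the highest low isoleucine refed library (5.06) was above the lowest control fasted library (4.40). The difference was -0.78 on the log2 scale (SE 0.107, adjusted p = 0.00121), and it was -0.77 in fasted and -0.79 in refed mice.

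Ifi27, an interferon-induced membrane protein gene, had log2 fold changes of -0.70 in fasted and -0.72 in refed mice and -0.71 over both (adjusted p = 0.00778). Mx1, a GTPase that blocks influenza viruses, was at 4.90, 4.37, 4.42 and 4.52 CPM in control fasted and at 2.79, 1.45, 1.48 and 1.25 in low isoleucine fasted livers. In refed livers it was at 3.499, 6.48, 4.43 and 4.66 against 3.52, 4.06, 4.46 and 2.93. The diets were apart in fasted mice and overlapped in refed mice. Its interaction interval was 0.33 to 1.75 log2 units with an adjusted interaction p above 0.05, and over both states it fell by 0.85 on the log2 scale (adjusted p = 0.0461).

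Promoters of 3 of the genes that fell are shown because they carry the element through which interferon acts, the interferon-stimulated response element, whose core was searched as GAAANNGAA or TTCNNTTTC. Overlapping matches run together in the capitals. The Ifit1 run lies at chr19:34640639-34640888 on the plus strand, the Oas1a run at chr5:120907526-120907775 on the minus strand and the Rsad2 run at chr12:26456453-26456702 on the minus strand (RefSeq, GRCm38.p6), each the 250 bases before the start site.
Ifit1: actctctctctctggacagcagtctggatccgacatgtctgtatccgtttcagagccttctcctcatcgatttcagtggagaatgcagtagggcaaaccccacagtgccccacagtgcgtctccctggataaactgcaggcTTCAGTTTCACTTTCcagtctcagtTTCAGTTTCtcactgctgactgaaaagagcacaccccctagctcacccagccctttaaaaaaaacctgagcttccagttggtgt
Oas1a: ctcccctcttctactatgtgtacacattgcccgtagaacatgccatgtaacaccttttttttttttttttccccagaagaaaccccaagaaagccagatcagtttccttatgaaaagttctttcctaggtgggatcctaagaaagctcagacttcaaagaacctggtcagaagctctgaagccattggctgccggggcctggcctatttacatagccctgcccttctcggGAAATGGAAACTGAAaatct
Rsad2: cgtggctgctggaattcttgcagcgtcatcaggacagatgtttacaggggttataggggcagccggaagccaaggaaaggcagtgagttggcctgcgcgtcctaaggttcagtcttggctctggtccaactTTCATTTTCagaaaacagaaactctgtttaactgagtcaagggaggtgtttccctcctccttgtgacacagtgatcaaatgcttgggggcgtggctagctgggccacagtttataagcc

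These letters were found in 19 of 27 promoter windows of the interferon-stimulated list (70.4%) and in 8.56% of all windows (7.41% of those of tested genes). They were in 16.8% of 95 windows of genes that fell and in 13.2% of 91 windows of genes that rose. RefSeq windows were matched by symbol for 84 of the 126 genes that fell and 59 of the 85 that rose, and for 7 of the 12 interferon-stimulated genes that fell. Ifit1, which encodes an RNA-binding antiviral protein, was at 34.5, 27.7, 28.3 and 35.5 CPM in fasted controls, 17.7, 7.91, 6.65 and 8.55 in low isoleucine fasted, 38.8, 60.2, 42.4 and 21.7 in control refed and 23.5, 31.8, 33.96 and 19.1 in low isoleucine refed livers. The diets did not overlap in fasted mice and overlapped in refed mice, where control refed library 4 (21.7) was low. The diet difference was -1.10 on the log2 scale (adjusted p = 0.0438). Oas1a, another oligoadenylate synthetase, fell by 0.97 (adjusted p = 0.00499) and Rsad2, which encodes viperin, by 0.69 (adjusted p = 0.0405).

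Of 18 tested MHC class I and immunoproteasome genes 2 fell (H2-Q1 and Psmb8) and 16 did not pass, where 0.845% of all genes fell. All 18 were negative over both states, with a median of -0.24 (-0.41 in fasted and -0.07 in refed mice). Read within each state, the sign was the same in fasted and refed mice for 13 of the 18, against 58.4% of all genes. The number that fell was 6 without control refed library 4, and 1 without low isoleucine fasted library 2 or 4. H2-Q1, a class I gene with near-identical neighbours, was at 3.16 to 18.2 CPM (median 8.26) in control and 0.967 to 3.68 CPM (median 1.90) in low isoleucine libraries, and the diets did not overlap within either state. This amounted to a log2 fold change of -2.25 (SE 0.294, adjusted p = 0.00121). Psmb8, a catalytic subunit of the immunoproteasome, had a log2 fold change of -0.99 in fasted and -0.34 in refed mice (-0.66 over both, adjusted p = 0.0191). By contrast 0 of 31 constitutive proteasome genes passed in the edgeR test, 15 had an unadjusted p under 0.05, all 31 were positive and the median was 0.16. DESeq2 and other settings called between 0 and 5 of these, and leaving out control refed library 1 gave 2.

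Markers of macrophages were measured beside the interferon-stimulated genes. Of 15 Kupffer cell and macrophage markers 2 fell (Clec4f and Folr2), where 0.845% of all genes fell. The other 13 markers did not pass, and 14 of the 15 were negative, with a median of -0.50. Their summed level was 423 to 551 CPM in fasted controls, 278 to 396 in low isoleucine fasted, 317 to 575 in control refed and 254 to 455 in low isoleucine refed libraries, and no defining marker was at 0. The ranges of the diets overlapped in refed but not in fasted mice. Clec4f, a lectin of Kupffer cells, was at 63.9 to 101 CPM in control and 45.2 to 77.5 CPM in low isoleucine libraries, where refed library 3 was the highest (log2 fold change -0.54, adjusted p = 0.0388). The number that fell was 6 without low isoleucine refed library 3. It was 1 without control fasted library 2, low isoleucine fasted library 2 or 3, or control refed library 3, and 0 without control fasted library 1, 3 or 4, low isoleucine fasted library 4, control refed library 2, or low isoleucine refed library 1, 2 or 4. The part of these cells in the fall of interferon-stimulated, MHC class I and complement genes was not tested.

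T, B and NK cell markers had a median of -0.48, with Cd4, which Kupffer cells and T cells can both carry, lower (log2 fold change -1.44, adjusted p = 0.00626) and 13 of 14 not passing. Their summed level was 15.2 to 17.3 CPM in fasted controls, 7.49 to 14.8 in low isoleucine fasted, 11.4 to 31.6 in control refed and 9.35 to 14.8 in low isoleucine refed libraries. Sinusoidal endothelial and stellate cell markers had medians of -0.05 and -0.09, with 0 of 15 passing in each by edgeR, 1 and 4 at an unadjusted p under 0.05, and 0 in any alternative. Pan-hepatocyte markers had a median of 0.15 and 0 of 14 passing, with 3 at an unadjusted p under 0.05 and at most 1 under an alternative.

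**Figure D3:**
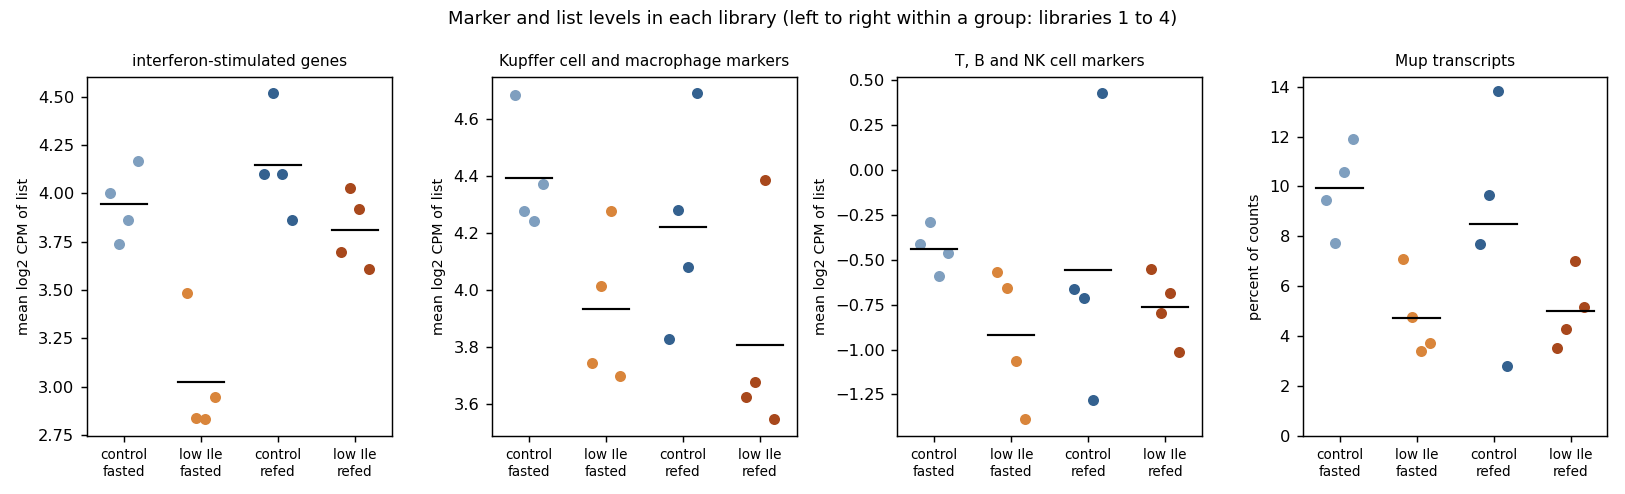
Mean log2 CPM of 3 gene lists and the share of counts taken by Mup transcripts (vertical axes) in each of the 16 libraries. Points are libraries and bars are group means; control refed library 4 has the highest lymphocyte and macrophage marker levels and, at 2.81%, the lowest Mup share.

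Complement genes, which encode plasma proteins made mostly by hepatocytes, included 5 that fell, of which C6, C8a, C8b and C9 belong to the membrane attack complex and C2 acts early in the cascade. Of 26 tested members these 5 fell, none rose and 21 did not pass, where 0.845% of all genes fell. The median was -0.30, with 23 of 26 negative (-0.31 in fasted and -0.29 in refed mice), and 9 fell without control refed library 4. C6 and C8b are on the male-biased list as well. C6, which joins the membrane attack complex after C5b, was at 167, 196, 327 and 289 CPM in fasted controls, 90.4, 121, 67.8 and 72.9 in low isoleucine fasted, 208, 147, 444 and 169.9 in control refed and 56.0, 62.6, 73.6 and 60.8 in low isoleucine refed livers. All 8 control libraries were above all 8 low isoleucine libraries. The estimate was -1.71 on the log2 scale (SE 0.225, adjusted p = 0.00121).

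C9, which forms the pore of the complex, was at 257 to 499 CPM (median 357) in control and 99.5 to 246 CPM (median 134) in low isoleucine libraries, again without overlap (log2 fold change -1.38, SE 0.187, adjusted p = 0.00123). C8a, a subunit of C8, fell by 0.88 (adjusted p = 0.00252), and C2, the serine protease of the classical and lectin C3 convertase, by 0.46 (adjusted p = 0.0151). C4a, which was not on the list and has the near-identical copy C4b, had a log2 fold change of -1.28 (adjusted p = 0.00367). Coagulation genes, which are also made mostly by hepatocytes, centred on 0.01, where edgeR called 0 of 21, with 5 at an unadjusted p under 0.05 and up to 2 in other settings. Apcs, serum amyloid P component, was the 1 of 21 acute phase genes to pass and rose, from 40.9 to 103 CPM in control to 95.6 to 177 CPM in low isoleucine libraries (log2 fold change 0.71, adjusted p = 0.00787). The diets overlapped for Apcs across states but not within them. The acute phase count was 2 without control refed library 3, 3 without control refed library 4 or low isoleucine fasted library 1, and 4 without low isoleucine refed library 3.

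Of the genes of bile acid synthesis and transport 1 rose. Cyp39a1, the oxysterol 7-alpha-hydroxylase of bile acid synthesis, was at 31.2, 39.2, 36.2 and 29.2 CPM in control fasted and 117, 108, 121 and 110 in low isoleucine fasted livers. In refed livers it was at 17.3, 24.3, 21.7 and 47.9 against 78.2, 59.1, 65.5 and 63.7. Every low isoleucine library was above every control library, of which control refed library 4 was the highest. The estimate on the log2 scale was 1.503 (SE 0.169, adjusted p = 0.000269). It was the 1 of 21 bile acid genes to pass, and Cyp7a1, the rate-limiting enzyme of the classical pathway, did not (0.32, 95% interval -0.22 to 0.86). Without control refed library 4 the bile acid genes that passed numbered 2.

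Of 26 genes of peroxisomal and omega fatty acid oxidation 3 rose (Cyp4a10, Cyp4a14 and Acnat2), Acox3 fell and 22 did not pass. The median of the list was 0.13. Cyp4a14, a fatty acid omega-hydroxylase and a target of the nuclear receptor PPAR-alpha, was at 9111, 7303, 7235 and 7312 CPM in fasted controls, 11871, 15396, 12506 and 13711 in low isoleucine fasted, 5943, 4464, 6519 and 4757 in control refed and 8582, 7826, 8249 and 6157 in low isoleucine refed livers. The diets did not overlap in fasted mice, and in refed mice low isoleucine library 4 (6157) lay among the controls. Over both states the difference was 0.65 on the log2 scale (SE 0.110, adjusted p = 0.0055). Cyp4a10 had the same estimate of 0.52 in both states (adjusted p = 0.00935 over both). The number passing on this list was 2 when any 1 of 11 of the 16 libraries was left out: control fasted 1 to 4, low isoleucine fasted 2, 3 and 4, control refed 3, and low isoleucine refed 1, 2 and 4. Mitochondrial fatty acid oxidation and ketogenesis genes centred on 0.12, where edgeR called 0 of 22, with 7 at an unadjusted p under 0.05 and at most 1 called under an alternative.

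Xenobiotic cytochromes P450 included 3 genes that rose of 23 (Cyp2b9, Cyp2c37 and Cyp2c39, from clusters of similar genes), with 20 not passing and a median of 0.13. Over all genes tested 0.570% rose. Without control refed library 2 the P450 genes that passed numbered 6. Cyp2c39 was at 2.46 to 8.91 CPM in control and 7.49 to 16.3 CPM in low isoleucine libraries, with no overlap within either state (log2 fold change 1.35, SE 0.178, adjusted p = 0.00121). Cyp2c37, an arachidonic acid epoxygenase, had a log2 fold change of 0.85 (adjusted p = 0.0375).

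Genes of branched-chain amino acid catabolism, the route by which isoleucine is broken down, held 1 gene that passed, and 2 when control refed library 1 was left out. Of 24 members 1 fell, Acadsb, the dehydrogenase of the 2-methylbutyryl-CoA made from isoleucine, and 23 did not pass. The median was -0.07. Acadsb was at 90.7, 93.4, 97.8 and 111 CPM in fasted controls, 84.5, 77.2, 62.6 and 71.0 in low isoleucine fasted, 79.3, 85.5, 101 and 88.9 in control refed and 69.4, 61.4, 75.5 and 53.7 in low isoleucine refed livers. The diets were apart within each state. The estimate was -0.43 on the log2 scale (SE 0.0852, adjusted p = 0.0153). Bckdk, the kinase that switches off branched-chain keto acid oxidation, did not pass (0.25, 95% interval 0.02 to 0.49, adjusted p = 0.314). Other amino acid catabolism and urea cycle genes had a median of -0.07, with Afmid of the tryptophan route lower (log2 fold change -0.62, adjusted p = 0.0147) and 37 of 38 not passing. On that list 2 passed without control refed library 4 and 3 without low isoleucine fasted library 1.

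No gene of the lipogenesis and gluconeogenesis lists passed in the edgeR test. Of 22 lipogenesis genes 0 passed by edgeR, with 6 at an unadjusted p under 0.05, up to 3 called when a library was left out (control refed 4), 1 in other settings, and a median of -0.12. Scd1, which encodes stearoyl-CoA desaturase, was at 1493, 5935, 4779 and 2789.9 CPM in fasted controls, 1580.3, 2071, 1510.0 and 2153 in low isoleucine fasted, 2165, 5272, 2537 and 573 in control refed and 334, 952, 568 and 343 in low isoleucine refed livers. The diets overlapped in each state, through control fasted library 1 and control refed library 4. Its log2 fold change was -1.65 (95% interval -2.55 to -0.75, adjusted p = 0.0677), and it passed without either of these libraries, without the robust option and by DESeq2. Fasn, fatty acid synthase (-0.08, -0.72 to 0.57), Srebf1, its regulator (-0.37, -0.91 to 0.16), Pck1 (-0.14, -0.64 to 0.36) and G6pc (-0.13, -0.77 to 0.50), both of gluconeogenesis, had log2 fold changes whose 95% intervals, given in parentheses, included 0. In control refed livers Fasn was at 545, 348, 420 and 62.2 CPM and Srebf1 at 112, 82.0, 66.2 and 31.7. Library 4 was the lowest for each. In low isoleucine refed livers Fasn was at 390, 387, 203 and 265 and Srebf1 at 99.7, 57.0, 42.7 and 59.4. The intervals include control refed library 4, so they do not show that the diet left Fasn and Srebf1 unchanged. Igfbp1 (1.75, adjusted p = 0.331) and Gdf15 (1.42, adjusted p = 0.22), which respond to fasting and stress, did not pass either.

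Proliferation and clock genes each had 2 members that fell, where 0.845% of all genes fell. Of 24 proliferation genes E2f1 and Cdk1 fell, 22 did not pass and 21 were negative, with a median of -0.47 (-0.08 in fasted and -0.71 in refed mice). Read within each state, the sign was the same in fasted and refed mice for 18 of the 24. E2f1, a cell cycle transcription factor, was at 0.719 to 1.34 CPM in control and 0.244 to 0.496 CPM in low isoleucine libraries, without overlap (log2 fold change -1.22, adjusted p = 0.00232). The proliferation count was 1 without control fasted library 3 or 4, low isoleucine fasted library 2, 3 or 4, control refed library 2, or low isoleucine refed library 2 or 4. Of 20 clock genes 2 fell, among them Usp2, and 18 did not pass. The median was -0.25 (-0.54 in fasted and -0.06 in refed mice). Usp2 encodes a deubiquitinase (log2 fold change -0.98, adjusted p = 0.0126). The clock count was 7 without control refed library 4. It was 1 without control fasted library 1 or 2, low isoleucine fasted library 2, 3 or 4, control refed library 1, 2 or 3, or low isoleucine refed library 2. The labels give no hour of harvest.

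How far the 2 states shared the diet effect was read from the states separately, which come from different libraries. The diet contrast called 115 genes in fasted mice (0.771% of those tested) and 26 in refed mice (0.174%). These counts rested on single libraries. The fasted count was 52, 25, 40 and 6 without control fasted library 1, 2, 3 or 4, and 203, 7, 14 and 24 without low isoleucine fasted library 1, 2, 3 or 4. All groups share 1 estimate of the spread, and leaving out a refed library moved the fasted count to 222 (control refed 4) and 71 (low isoleucine refed 1). The refed count was 17 without control refed library 3, 89 without control refed library 4, and 3, 6, 33 and 9 without low isoleucine refed library 1, 2, 3 or 4. Of the 115 fasted calls 98 (85.2%) had the same sign in refed mice and 53 (46.1%) also had an unadjusted p under 0.05 there, against 58.4% and 6.96% of all 14920 genes. The median ratio of the refed to the fasted log2 fold change was 0.39. Of the 26 refed calls 21 (80.8%) had the same sign in fasted mice and 16 (61.5%) an unadjusted p under 0.05 there, against 58.4% and 7.92% of all genes, with a median ratio of 0.59. Calls are picked for their size in their own state, which by itself makes the estimate in the other state smaller.

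With all libraries in, 10 of the 211 genes were called in both states, 61 in fasted mice only, 9 in refed mice only and 131 in neither state alone. The contrasts within states also called 44 (fasted) and 7 (refed) genes that were not among the 211. All 211 had the same sign in both states, which choosing them by the sum of both states favours. For 70 of them (27 that rose and 43 that fell) the 4 libraries of one diet lay all above or all below the 4 of the other within both states in the same direction, which was true of 90 genes (0.603%) of all tested. Choosing the 211 by their diet effect in these same libraries favours such separation too.

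No gene passed for a difference of the diet effect between the states by edgeR (0% called), while 928 of 14920 genes had an unadjusted p under 0.05, among them 27 of the 211. DESeq2 called 35 genes, limma-voom 0, and edgeR 1 without low isoleucine fasted library 1. This does not show that the effects were equal. The 95% interval of the difference lay within 1 log2 unit either side of 0 for 113 of the 211 genes. For Moxd1, which was highest in 2 control libraries (29.2 CPM in control fasted 4 and 33.6 in control refed 3, against 0 to 0.0691 on the low isoleucine diet), it ran from -10.8 to 10.2.

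**Figure D4:**
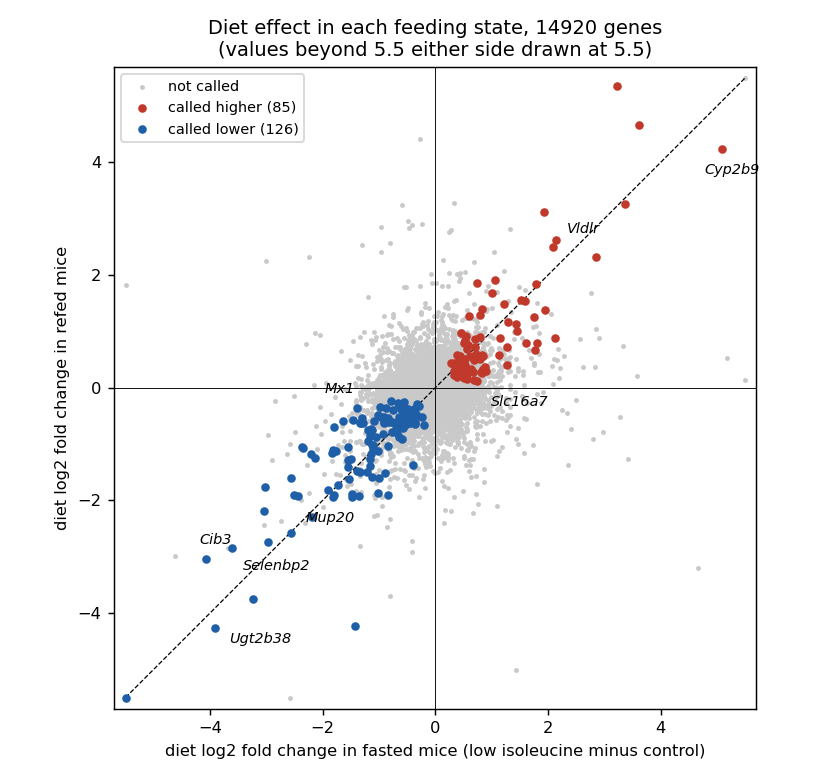
Diet log2 fold change in refed mice (vertical) against that in fasted mice (horizontal) for 14920 genes, with the 85 genes that rose and the 126 that fell over both states coloured and the dashed line marking equal change. All 211 coloured points lie in the lower left or upper right quadrant, which their choice favours; values beyond 5.5 on either axis are drawn at 5.5.

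The 131 genes called over both states but in neither alone included small shifts. Ddc, aromatic L-amino acid decarboxylase, was at 40.5, 35.9, 38.2 and 33.8 CPM in fasted controls, 49.9, 51.9, 46.5 and 50.0 in low isoleucine fasted, 36.4, 26.5, 32.8 and 29.9 in control refed and 45.1, 41.6, 49.2 and 37.96 in low isoleucine refed livers. The diets did not overlap within either state. The shift was 0.44 on the log2 scale (SE 0.0749, adjusted p = 0.0054), with 0.42 in fasted and 0.47 in refed mice. As3mt, arsenite methyltransferase (0.48, adjusted p = 0.00916), and Camk1d, a calcium-dependent kinase (0.65, adjusted p = 0.00854), also rose. Lama3, a laminin chain (-1.68, adjusted p = 0.00294), and Ivns1abp (-0.55, adjusted p = 0.00499) fell.

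The called genes with the smallest interaction p were Slc16a7, Nt5c2, Mx1 and Mreg, and each had the larger estimate in fasted mice. Slc16a7, the monocarboxylate transporter MCT2, was at 85.4, 94.9, 91.5 and 73.0 CPM in control fasted and 155, 137, 145 and 138 in low isoleucine fasted livers. In refed livers it was at 80.0, 85.1, 65.1 and 70.1 against 78.7, 87.9, 83.2 and 77.8. The diets were far apart in fasted mice and overlapped in refed mice. The log2 fold change was 0.74 in fasted and 0.12 in refed mice, with an interval of -0.93 to -0.30 for the difference, which did not pass after adjustment. Nt5c2, a cytosolic nucleotidase (0.69 and 0.14), and Mreg (0.83 and 0.26) had a like pattern.

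The remaining genes with the largest changes and no overlap within either state were mixed in function. Among those that rose were Unc93a2 (log2 fold change 1.24), Rfx4, a transcription factor (1.06), and Abtb2 (0.86). Among those that fell were Ugt2b38, a glucuronosyltransferase with near-identical copies (-4.08), Cib3, a calcium-binding protein (-3.54), Tff3, a trefoil factor (-2.85), and Blnk, a B cell adaptor (-1.67). For Unc93a2 and Blnk the diets were barely apart in fasted mice. Unc93a2 was at 4.726 CPM in control fasted library 1 and 4.737 in low isoleucine fasted library 1. Blnk was at 0.675 and 0.661 CPM in the same libraries. Tff3 was at 3.70 to 13.8 CPM (median 11.9) in control and 0.477 to 3.07 CPM (median 0.762) in low isoleucine libraries, without overlap (adjusted p = 0.00244). Ugt2b38 was carried by 3 of the 8 control libraries, at 21.7, 30.2 and 34.2 CPM, with the other 5 at 1.81 to 4.37 and the low isoleucine libraries at 0.176 to 1.36 (SE 0.756, adjusted p = 0.0147).

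**Figure D5:**
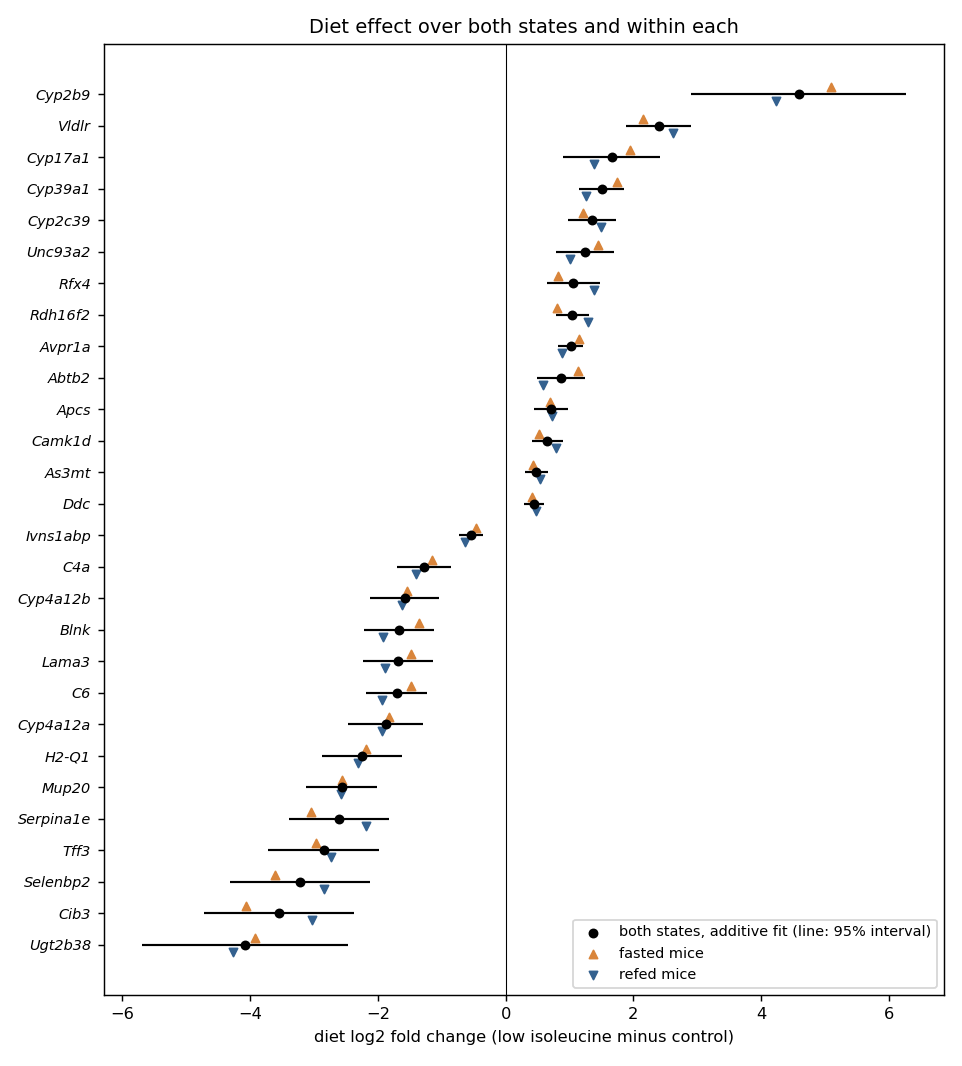
Diet log2 fold change (horizontal axis, low isoleucine minus control) of 28 genes over both states (black point, line for the 95% interval) and within fasted (upward triangle) and refed mice (downward triangle). Each gene has both triangles on the same side of 0, which choosing genes by both states favours; the interval is narrowest for Ddc (0.29 to 0.60) and widest for Cyp2b9 (2.91 to 6.27).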

How the data were processed

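Per the labels' protocols, liver RNA was poly-A enriched and made into stranded libraries that were spread over several lanes and merged before expression estimation. The authors deposited 1 table that holds, per the file headers, RSEM expected counts by gene, and 10.2% of its values are not whole. Which aligner, build and annotation were used is not given in the sources used here. With no role stated, edgeR, limma and R 3.5.3 are named in the submitters' processing notes. The authors' own tables of comparisons were not used.

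Expected counts were rounded to integers. The tools were edgeR 4.0.16, DESeq2 1.42.0 and limma 3.58.1 under R 4.3.3. The filterByExpr function chose the genes to test (at least 10 counts in enough libraries and 15 in all), and TMM set the scaling. The robust quasi-likelihood fit used feeding state and diet as additive terms. Diet effects within a state and their difference came from a fit with 1 mean for each of the 4 groups. P-values were adjusted by Benjamini-Hochberg over all tested genes, and called below 0.05. Each SE was computed from the log2 fold change and its F statistic. Of 51912 gene identifiers 51633 had a symbol.

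The comparison, the 38 gene lists and the naming rule were chosen with earlier results of these data known, so list counts are descriptions beside the all-gene values. The rule named 68 genes. It took 12 single genes chosen for amino acid and fasting biology, and up to 12 genes in each direction with the largest change, a mean level of 1 CPM or more and no overlap of the diets within either state. It also took up to 4 passing members of each list with at least 2, the 4 with the smallest interaction p, 8 called in neither state alone, and up to 8 with an SE under 0.15; genes with provisional names were left out. Some of the genes so named are not reported here. Alternatives were other scalings and filters, DESeq2, limma-voom, a non-robust fit, a block by the mark in the labels, no feeding state term, a test against a 1.2-fold change, removal of abundant transcripts, and leaving out each library. In simulated counts (14723 genes) the main effect recovered 67.2%, 83.6% and 98.5% of genes changed 1.5-fold, 2-fold and 4-fold, with 13 false calls among 179.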

Additional observations from a re-analysis of the deposited data

Results flagged for a closer look

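In 276 groups of 4 libraries, 24 (8.70%) had a highest or lowest value whose gap to the others exceeded Dixon's 95% critical value; chance gives about 1 in 20. All values are TMM-normalised CPM, with the range of the other 3 libraries in parentheses.

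Of control fasted libraries, library 1 was high for Cyp2b9 at 3.70 (0.0321 to 0.512) and Cyp4a14 at 9111 (7235 to 7312) and low for Tff3 at 3.91 (11.8 to 12.6). Library 3 was high for Acox3 at 29.5 (26.9 to 27.0) and Igfbp1 at 242 (44.6 to 57.5) and low for Usp2 at 25.3 (34.9 to 36.6). Library 4 was high for Gdf15 at 0.449 (0.138 to 0.178).

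Of low isoleucine fasted libraries, library 1 was high for the interferon-stimulated genes Ifi44 at 4.22 (1.93 to 2.32) and Mx1 at 2.79 (1.25 to 1.48) and low for Tmc7 at 2.79 (3.90 to 4.06). Library 2 was high for Mreg at 34.1 (27.1 to 27.5) and Nt5c2 at 28.7 (21.8 to 22.4), and library 3 for Tff3 at 3.07 (0.477 to 0.764).

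Of control refed libraries, library 2 was high for Cyp2b9 at 28.3 (0.399 to 2.46), Oas1a at 8.10 (5.15 to 5.38) and Oas2 at 9.57 (6.88 to 7.32). Library 3 was high for Moxd1 at 33.6 (0.0804 to 0.369) and Ugt2b38 at 34.2 (1.81 to 4.37) and low for Vldlr at 1.16 (2.89 to 3.18).

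Of low isoleucine refed libraries, library 1 was high for Acnat2 at 116 (75.9 to 80.1) and low for Sult3a1 at 0.617 (0.868 to 0.899). Library 3 was high for the Kupffer cell markers Clec4f at 77.5 (45.2 to 48.0) and Folr2 at 8.53 (3.30 to 3.94) and for Cyp7a1 at 672 (269 to 314).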

How the results depend on the processing

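Over both states DESeq2 called 562 genes (221 higher, 341 lower), a fit without feeding state 65 (16 and 49) and a test against a 1.2-fold change 46 (13 and 33), against 211 (85 and 126). Leaving out single libraries gave 104 to 448 genes, 39 to 135 higher and 65 to 313 lower. In fasted mice (115) DESeq2 called 371, a fit of those 8 libraries alone 193 and leave-outs 6 to 222; in refed mice (26) the values were 179, 3 and 3 to 89. The difference between states (0) gave 35 by DESeq2 and 0 to 1 in leave-outs. The share of fasted calls with the same sign in refed mice was 81.3 to 100% in leave-outs, and that of refed calls in fasted mice 69.7 to 100%, and 100% when each state was fitted alone. The refed shares rest on few calls: 3 in the fit of that state alone and 3 to 89 in leave-outs. The causes were not tested. Other scalings, filters, limma-voom and the non-robust fit gave 172 to 222 genes over both states. The sign of the 211 genes was kept wherever they were tested, which is favoured because the alternatives reuse the libraries by which they were chosen. Of the 211 genes, 29 passed under all 29 alternatives and 91 in all 16 leave-outs. Of the genes named by rule, 206 values lost the call, 5 gained it (Scd1 and Fgf21) and 0 reversed.

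The marks in the labels are shared by the groups and are not stated to pair libraries. Same-mark libraries had r over 0.1 in 8 of 24 pairs, and 6 of 16 libraries correlated best with their own mark. With a replicate block by mark 168 genes were called over both states (65 higher, 103 lower), 77 in fasted mice, 25 in refed mice and 0 for the difference.

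Counting error limits scarce genes such as Sult3a1, and 4 libraries per group limit the contrasts within a state.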

Other observations

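A few further genes that passed and are on no list above were picked out after their values were seen, and they stand for themselves only. Mpc1 and Mpc2, the subunits of the mitochondrial pyruvate carrier, rose by small amounts (log2 fold changes 0.29 and 0.34, adjusted p = 0.0495 and 0.0283). Mpc2 was at 108 to 127 CPM in fasted controls, 150.2 to 171 in low isoleucine fasted, 107 to 125 in control refed and 122 to 145 in low isoleucine refed libraries. Cs, citrate synthase, rose by 0.32 (adjusted p = 0.0372). Mcu, the pore of the mitochondrial calcium uniporter, rose by 0.39 (SE 0.0858, adjusted p = 0.0289), while Micu2, a subunit that gates that pore, fell by 0.64 (SE 0.0973, adjusted p = 0.00252). Micu2 was at 28.7, 34.5, 38.1 and 31.0 CPM in fasted controls, 28.2, 18.3, 18.2 and 20.6 in low isoleucine fasted, 28.0, 35.3, 39.3 and 31.6 in control refed and 20.8, 21.3, 22.4 and 21.6 in low isoleucine refed livers. The diets did not overlap within either state. Cpt1b, the muscle form of carnitine palmitoyltransferase 1, had a log2 fold change of 1.00 (adjusted p = 0.0227). With 1 library left out, Mpc1 passed in 3 of 16 fits, Mcu in 6, Cs in 7, Mpc2 in 9, Cpt1b in 12 and Micu2 in 16.

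Other genes picked out in the same way were Upp2, uridine phosphorylase 2 (-1.50, adjusted p = 0.00875), and Alas2, the erythroid form of aminolevulinate synthase (-1.10, adjusted p = 0.00626), and neither gene overlapped between diets within either state. Alas2 was the 1 of 6 tested erythroid markers to pass, and 2 passed without control refed library 1. The erythroid list did not fall with it: 4 members were positive and 2 negative. Its median was 0.46 (0.98 in fasted and -0.002 in refed mice). Lgr5, a receptor of pericentral hepatocytes, was the 1 of 15 pericentral markers to pass (0.62, adjusted p = 0.0356), and Sult5a1 the 1 of 15 periportal markers (-0.93, adjusted p = 0.0419). Lgr5 passed in 7 of 16 fits with 1 library left out and Sult5a1 in 4. The medians of the pericentral and periportal lists were 0.11 and -0.17.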
